A study of Mus musculus with 12 samples.

Results

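The 8 genes described here encode receptors for extracellular nucleotides and adenosine and the ectonucleotidase that links them: P2ry12, P2ry13, P2ry6, P2rx4, P2rx7, Entpd1, Adora3 and Adora2a. They were chosen by name among the 49585 genes of the deposited tables, and all 8 were found there under 1 gene ID each. Their RNA was measured in nuclei taken from the spinal cord of C57BL/6 mice. In sequence, the groups are sham-operated mice, whose libraries carry a label of day 7, and mice at 3, 7 and 14 days after spinal cord injury, with 3 libraries in each group and 12 in all. Each library pooled cord tissue around the lesion site, or the matching cord, from 3 animals, so the spread between libraries is between pools. Nuclei carrying a fluorescent tag, GFP, were captured on magnetic beads through an anti-GFP antibody and are labelled as microglial. The cell-type promoter behind the GFP is not given in the sources used here, and no further genotype or agent is stated for any group. Whether microglia that live in the cord and macrophages that enter it both carried the tag is likewise not given in the sources used here.

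Cells that are damaged or active release ATP, ADP and UDP, and microglia sense these nucleotides through surface receptors. P2Y receptors couple to G proteins, P2X receptors are ATP-gated cation channels, and adenosine receptors respond to the nucleoside that remains once ectonucleotidases have removed the phosphates. In microglia of the healthy central nervous system P2ry12 is a widely used marker and is known for steering processes towards injury, P2ry6 for uptake of debris, P2rx4 for pain signalling in the spinal cord and P2rx7 for release of interleukin-1 beta.

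Total counts were 4003480 to 10670804 per library, and 7 of the 8 genes had enough counts to be tested. Adora2a did not. Levels within a gene are given in CPM, which sets counts relative to the TMM-scaled total of their library, and levels between genes in RPKM, which also divide by gene length. A gene is called changed where its adjusted p from edgeR's quasi-likelihood test, adjusted by the Benjamini-Hochberg method over all 18451 tested genes, is under 0.05. Log2 fold changes are given ± SE, group means ± SD with n = 3 libraries, and all p-values measure the spread between libraries. The label of the nuclei was set beside 10 microglia-defining genes that are not among the 8 (among them Cx3cr1, Tmem119, Csf1r, Sall1, Siglech and Gpr34). All 10 were counted in every library, which shows that their RNA was present and does not measure purity. Their summed level was 4813 to 5962 CPM in sham, 3378 to 4015 at 3 days, 4334 to 5519 at 7 days and 3669 to 4498 at 14 days. Sham replicate 4 stood apart from the other sham libraries, with 4999 CPM of 8 astrocyte markers in that library against 535.1 and 1394 CPM in sham replicates 2 and 3. In sham replicate 4 the 10 microglia-defining genes summed to 4813 CPM and 8 listed neuron genes to 3175 CPM. Fold changes without that library are therefore given for P2ry13, P2ry6, P2rx7 and Adora3, and numbers of calls without it for the 8 genes together. For other genes the lack of such a value does not mean that the result is independent of that library. Pools also differed in Y-linked genes, which summed to under 1 CPM in sham replicate 2 (0.708) and 3-day replicates 1 (0.46) and 3 (0.375) and to 9.51 to 703.2 CPM in the other 9 libraries.

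In the edgeR fit more of the genes were called at 3 days than at 7 or 14 days, as was so over all genes. With libraries scaled to 10 pan-myeloid genes the numbers called were 4, 4 and 3, beside 20.1%, 8.56% and 7.63% of all genes. At 3 days against sham, P2ry12, P2ry13, P2rx7 and Entpd1 fell and P2rx4 rose, so 5 of the 7 tested genes were called, while 20.0% of all tested genes were called in the same comparison (10.9% higher and 9.17% lower). The libraries of the 2 groups did not overlap for 6 of the 7 genes, as for 34.2% of all. The median log2 fold change of the 7 genes was -0.65, and that of all tested genes was -0.03. At 7 days P2rx4 was the 1 called gene of the 7, where 9.28% of all genes were called (4.61% higher), with medians of -0.17 for the 7 genes and 0.01 for all. Its libraries and those of P2ry13 did not overlap with sham, 2 of the 7 genes beside 22.8% of all. At 14 days P2ry12 and P2ry13 were again lower and P2rx4 higher, 3 genes of 7 where 9.82% of all genes were called (5.02% higher and 4.79% lower), with medians of -0.50 and -0.05. Libraries did not overlap for 6 of the 7 genes, as for 29.7% of all. In the test of any difference between the 4 groups 5 of the 7 were called, beside 26.4% of all genes. Without sham replicate 4, 8 genes could be tested and 7 were called at 3 days, 2 at 7 days and 4 at 14 days, beside 21.3%, 6.89% and 14.3% of all genes in that fit. In that smaller fit Adora2a and Adora3 joined the calls at 3 and 14 days and P2ry6 at 7 days, and P2ry13 left them at 14 days. Adora2a passed the filter on low counts there only through injured libraries, where it was higher. Its raw counts in sham were 0, 0 and 2, and the 2 were in replicate 4, the library left out. Its calls in that fit are therefore no support for a change. The 3 comparisons against sham share the sham libraries.

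**Figure D1:**
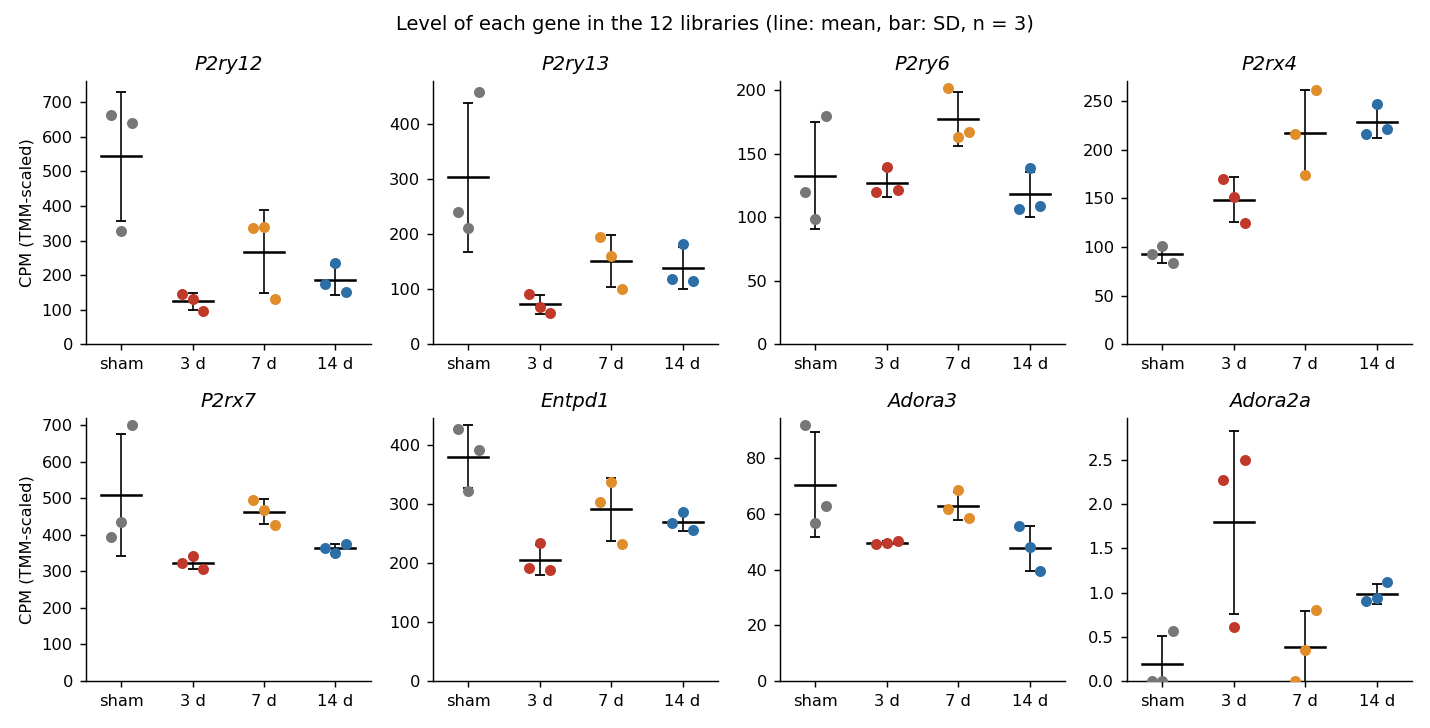
Level of each of the 8 genes in CPM (vertical axes, each from 0) in every library of the sham group and at 3, 7 and 14 days after injury; points are libraries, lines are means and bars are SD. P2ry12 and P2ry13 are lowest at 3 days, P2rx4 is higher in every injured library than in every sham library, and Adora2a stays below 3 CPM throughout.

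P2ry12 and P2ry13 are Gi-coupled receptors for ADP and lie side by side on chromosome 3. In GRCm38, P2ry12 spans 59216272 to 59262871 and P2ry13 spans 59207892 to 59210882, both on the minus strand with a gap of 5389 bases. RefSeq (GRCm38.p6) gives a start for both genes and for P2rx4. The 250 bases before each of these starts are printed 5′ to 3′ along the gene's strand. These genes were picked because P2ry12 and P2ry13 moved together over the 12 libraries and P2rx4 was higher than in sham where they were lower. From 3 to 7 days the log2 values of P2ry12, P2ry13 and P2rx4 all rose (1.11, 1.07 and 0.55, the last with edgeR adjusted p = 0.0506). Capitals mark matches to GAGGAA, a core of sites bound by the myeloid factor PU.1, and both strands were searched.
P2ry12, chr3:59262986-59263235, minus strand: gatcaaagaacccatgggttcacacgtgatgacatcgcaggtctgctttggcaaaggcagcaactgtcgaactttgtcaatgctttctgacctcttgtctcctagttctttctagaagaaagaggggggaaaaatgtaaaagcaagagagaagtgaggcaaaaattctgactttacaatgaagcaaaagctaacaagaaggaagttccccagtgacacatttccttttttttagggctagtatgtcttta
P2ry13, chr3:59210883-59211132, minus strand: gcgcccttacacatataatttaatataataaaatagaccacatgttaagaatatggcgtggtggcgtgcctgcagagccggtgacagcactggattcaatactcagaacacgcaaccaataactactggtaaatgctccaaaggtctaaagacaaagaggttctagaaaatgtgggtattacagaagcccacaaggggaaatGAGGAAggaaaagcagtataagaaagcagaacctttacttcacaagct
P2rx4, chr5:122707294-122707543, plus strand: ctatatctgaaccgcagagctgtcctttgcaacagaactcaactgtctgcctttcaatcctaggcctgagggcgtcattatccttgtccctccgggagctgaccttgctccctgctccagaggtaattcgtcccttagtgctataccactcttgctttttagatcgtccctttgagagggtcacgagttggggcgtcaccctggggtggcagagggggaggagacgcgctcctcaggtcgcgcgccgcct
The P2ry13 window holds 1 match, 48 to 43 bases before the start, and the P2ry12 and P2rx4 windows hold none. Of 32536 RefSeq windows of the same length 23.4% hold GAGGAA. The letters TGANTCA, which AP-1 factors bind, occur in 6.7% of them and an interferon-response element in 3.0%, and neither is in these 3 windows. No match says only that the letters are not in the window. Of the 2 P2rx7 windows 1 holds TGANTCA and the other holds none of the 3 motifs, Adora3 holds both GAGGAA and TGANTCA, and 1 of the 2 Entpd1 windows holds GAGGAA at 2 positions.

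P2ry12 had 662.7, 328.3 and 638.8 CPM in the sham libraries, 144.6, 131.1 and 97.2 CPM at 3 days, 335.2, 338.5 and 130.9 CPM at 7 days, and 173.8, 233.8 and 151.2 CPM at 14 days. Every library at 3 and at 14 days lay below every sham library, and the 7-day libraries overlapped with sham because 2 of them were just above the lowest sham library. P2ry12 averaged 124.3 ± 24.4 CPM at 3 days against 543.3 ± 186.6 CPM in sham, which is -2.13 ± 0.34 on the log2 scale (edgeR adjusted p = 0.000646). At 14 days it averaged 186.3 ± 42.6 CPM, -1.54 ± 0.33 against sham (edgeR adjusted p = 0.00952), and this call ended without 14-day replicate 3 (-1.41, adjusted p = 0.0595). At 7 days the value was -1.02 ± 0.33 (edgeR adjusted p = 0.0637), which did not pass. Of 23 alternative settings, it passed in 4, among them DESeq2, pan-myeloid scaling and the fit without sham replicate 3, and not in the other 19. Lower RNA of a gene in such pools can come from fewer cells that express it or from less RNA per cell, and the counts cannot tell these apart.

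P2ry13 had 240.7, 210.5 and 458.0 CPM in sham, 90.9, 68.3 and 57.5 CPM at 3 days, 194.0, 160.6 and 100.4 CPM at 7 days, and 118.8, 182.6 and 114.0 CPM at 14 days. All injured libraries lay below all sham libraries, and the 3-day libraries lay below all the others. P2ry13 averaged 72.2 ± 17.0 CPM at 3 days against 303.1 ± 135.0 CPM in sham, -2.07 ± 0.32 on the log2 scale (edgeR adjusted p = 0.000479). The value was -0.999 ± 0.31 at 7 days (edgeR adjusted p = 0.0532) and -1.13 ± 0.31 at 14 days (0.0299). Of 23 alternative settings, the 7-day value passed in 7, among them DESeq2, median-ratio size factors and pan-myeloid scaling, and not in the other 16. The highest sham library was replicate 4, and without it the log2 fold changes were -1.68 at 3 days (edgeR adjusted p = 0.000368), -0.58 at 7 days (0.197) and -0.72 at 14 days (0.0744). The 14-day call also ended without 14-day replicate 1 (-1.03, adjusted p = 0.129) or 3 (-1.003, adjusted p = 0.141), with microglia-defining scaling (-0.79, adjusted p = 0.0797), the replicate block (-1.11, 0.0614) or 2 groups alone (-1.11, 0.0725), and in limma on log2 RPKM.

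Between times, both ADP receptors were higher at 7 than at 3 days. P2ry12 differed by 1.11 ± 0.33 (edgeR adjusted p = 0.0386) with overlapping libraries, since 7-day replicate 4 (130.9 CPM) lay within the 3-day range. P2ry13 differed by 1.07 ± 0.31 (edgeR adjusted p = 0.0333), and all its 7-day libraries were above all its 3-day libraries. These were the 2 called genes of the 7 in that comparison, in which 13.4% of all genes were called (5.85% higher), and the count was 6, beside 23.3% of all genes, without sham replicate 4, which enters that comparison only through the shared estimates of spread and scaling and the genes tested. Both calls are close to the threshold: the value for P2ry12 ranged from 0.93 to 1.43 and that for P2ry13 from 0.86 to 1.29 when each library was left out in turn, and leaving out 3-day replicate 2 or 3 or 7-day replicate 1 or 3 ended both calls. Leaving out 3-day replicate 1 or 14-day replicate 1 or 3 ended the call of P2ry12 as well. Scaled to pan-myeloid genes the values were 0.61 for P2ry12 (edgeR adjusted p = 0.101) and 0.58 for P2ry13 (0.115), and scaled to microglia-defining genes 0.697 (0.0944) and 0.67 (0.121), so neither passed on either scale. On log2 RPKM limma called neither gene, and the call of P2ry13 also ended with the Y-linked level as a covariate (1.08, edgeR adjusted p = 0.0664).

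P2ry6, a Gq-coupled receptor for UDP that is known for triggering phagocytosis by microglia, did not follow the ADP receptors. In GRCm38 it lies on chromosome 7 from 100937630 to 100974649 (minus strand). Its level was 119.6, 98.8 and 179.7 CPM in sham, 119.8, 139.3 and 121.1 CPM at 3 days, 201.7, 163.2 and 167.4 CPM at 7 days, and 106.5, 138.4 and 109.1 CPM at 14 days. The 7-day libraries were above all libraries at 3 and 14 days, and every injured group overlapped with sham. The log2 fold change was -0.06 ± 0.21 at 3 days (edgeR adjusted p = 0.855), 0.42 ± 0.21 at 7 days (0.205) and -0.17 ± 0.21 at 14 days (0.647), none of which passed. The 3-day value was positive when libraries were scaled to pan-myeloid (0.27) or microglia-defining genes (0.39). The sham spread came mostly from replicate 4. Without it the values were 0.18 at 3 days (edgeR adjusted p = 0.474), 0.69 at 7 days (0.0256) and 0.09 at 14 days (0.766), so the 7-day value passed and the other two turned positive. The value of 14 against 7 days was -0.59 ± 0.21 (edgeR adjusted p = 0.142), and it passed without sham replicate 4 (-0.60, adjusted p = 0.0223).

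P2rx4 was the 1 gene of the 7 that rose against sham, and it did so at each time. It encodes an ATP-gated channel and lies on GRCm38 chromosome 5 from 122707544 to 122729738 (plus strand), 16111 bases after P2rx7. Its level was 92.5, 101.0 and 83.4 CPM in sham, 170.4, 151.4 and 124.2 CPM at 3 days, 216.2, 174.2 and 261.8 CPM at 7 days, and 216.1, 246.9 and 221.6 CPM at 14 days. All 9 injured libraries lay above all 3 sham libraries. P2rx4 averaged 228.2 ± 16.4 CPM at 14 days against 92.3 ± 8.81 CPM in sham. The log2 fold change was 0.69 ± 0.18 at 3 days (edgeR adjusted p = 0.0148), 1.24 ± 0.18 at 7 days (0.000998) and 1.30 ± 0.18 at 14 days (0.000481). The 3-day call ended without 3-day replicate 1 (0.55, edgeR adjusted p = 0.0782) or 2 (0.65, adjusted p = 0.0594) and in a fit of those 2 groups alone (0.66, adjusted p = 0.0594), and the later calls held without any 1 library.

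P2rx4 was also higher at 14 than at 3 days, by 0.62 ± 0.18 (edgeR adjusted p = 0.0454), with all 14-day libraries above all 3-day libraries. It was the 1 called gene of the 7 in that comparison, where 7.31% of all genes were called (2.17% higher). The value ranged from 0.51 to 0.76 over the fits without 1 library, and the call ended on leaving out 3-day replicate 2 or 3, 7-day replicate 1 or any of the 14-day replicates. It ended as well with pan-myeloid scaling (0.34, edgeR adjusted p = 0.353), microglia-defining scaling (0.55, 0.16), the Y-linked covariate (0.60, 0.119), the replicate block and limma on log2 RPKM. Of 7 against 3 days the value was 0.55 ± 0.18 (edgeR adjusted p = 0.0506), with all 7-day libraries above. Between 14 and 7 days P2rx4 differed by 0.07 ± 0.18 (edgeR adjusted p = 0.888). In that last comparison edgeR called 0 of the 7 genes, beside 2.19% of all genes, with 1 of them at an unadjusted p under 0.05. DESeq2 also called 0, and 1 gene, P2ry6, was called without sham replicate 4.

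P2rx7, the ATP-gated channel that at high ATP activates the inflammasome, lies just before P2rx4 (GRCm38 chromosome 5, 122643911 to 122691432, plus strand) and did not rise with it. Its level was 393.9, 434.3 and 701.3 CPM in sham, 323.0, 341.5 and 306.5 CPM at 3 days, 495.6, 468.3 and 427.8 CPM at 7 days, and 364.7, 349.9 and 374.2 CPM at 14 days. The 3-day and the 14-day libraries lay below all sham libraries, and the 7-day libraries overlapped with them. P2rx7 fell at 3 days by 0.65 on the log2 scale (SE 0.19, edgeR adjusted p = 0.0239). The values at 7 days (-0.14 ± 0.19, edgeR adjusted p = 0.677) and 14 days (-0.49 ± 0.19, 0.113) did not pass. Sham replicate 4 carried much of the 3-day difference, since the value without it was -0.38 (edgeR adjusted p = 0.0498), and leaving out any of the 3-day libraries ended the call (adjusted p = 0.0577 to 0.0826). It also ended with pan-myeloid scaling (-0.33, adjusted p = 0.234), with the replicate block (-0.54, 0.0979), with the Y-linked level as a covariate (-0.58, 0.0615) and in a fit of those 2 groups alone (-0.68, 0.0943). At 7 days the value without sham replicate 4 was 0.16 (edgeR adjusted p = 0.538) and at 14 days -0.20 (0.336), while without sham replicate 2 the 14-day value was -0.66 and passed (0.0312).

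Entpd1 encodes CD39, the enzyme that removes phosphates from extracellular ATP and ADP and so both ends P2 signalling and supplies the substrate for adenosine. In GRCm38 it spans 40612366 to 40741602 on chromosome 19 (plus strand). Its level was 426.9, 322.3 and 391.9 CPM in sham, 191.6, 234.7 and 188.4 CPM at 3 days, 302.9, 337.9 and 231.6 CPM at 7 days, and 267.0, 286.4 and 255.5 CPM at 14 days. The 3-day and 14-day libraries lay below all sham libraries. Entpd1 averaged 204.9 ± 25.9 CPM at 3 days against 380.4 ± 53.2 CPM in sham, -0.89 ± 0.17 on the log2 scale (edgeR adjusted p = 0.00253), and this call held without any 1 library. Neither the 7-day value (-0.39 ± 0.17, edgeR adjusted p = 0.162) nor the 14-day value (-0.50 ± 0.17, 0.0804) passed.

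The adenosine receptors were among the 3 lowest of the 8 genes per length in every group. Adora3, a Gi-coupled receptor, had 92.0, 56.7 and 63.0 CPM in sham, 49.2, 49.6 and 50.4 CPM at 3 days, 61.8, 68.5 and 58.6 CPM at 7 days, and 55.6, 48.1 and 39.4 CPM at 14 days. Its 3-day and 14-day libraries lay below all sham libraries, by margins that were small beside the sham spread. The log2 fold change was -0.51 ± 0.20 at 3 days (edgeR adjusted p = 0.0913), -0.17 ± 0.20 at 7 days (0.628) and -0.57 ± 0.20 at 14 days (0.0949), none of which passed. Without sham replicate 4 the values were -0.61 at 3 days (edgeR adjusted p = 0.0462) and -0.66 at 14 days (0.0468), and without sham replicate 3 the 3-day value was -0.67 (0.0397). In GRCm38, Adora3 (chromosome 3, 105870858 to 105908926, plus strand) shares 779 exonic bases, 20.9% of its own, with Tmigd3 on the same strand, so the counting can have split or dropped their common reads and both levels are uncertain. Tmigd3 itself fell at 3 days by 1.50 on the log2 scale (SE 0.26, edgeR adjusted p = 0.00108).

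Adora2a, the Gs-coupled receptor known for process retraction in activated microglia, was close to the detection limit. It lies on GRCm38 chromosome 10 from 75316877 to 75334784 (plus strand). It had 0, 0 and 2 raw counts in the sham libraries, 10, 4 and 26 at 3 days, 0, 2 and 6 at 7 days, and 6, 4 and 5 at 14 days. Every 3-day library and every 14-day library had more counts than every sham library. Summed over the group and divided by its total counts, the level was 1.85 CPM at 3 days against 0.132 CPM in sham, a ratio of 14.0 with an exact 95% interval of 3.63 to 120.0. The ratio was 3.31 at 7 days (0.66 to 32.0) and 7.76 at 14 days (1.81 to 70.0), and these intervals cover counting error only. In a fit without the filter on low counts, which tested 34125 genes, the edgeR adjusted p was 0.0143 at 3 days, 0.597 at 7 days and 0.162 at 14 days.

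**Figure D2:**
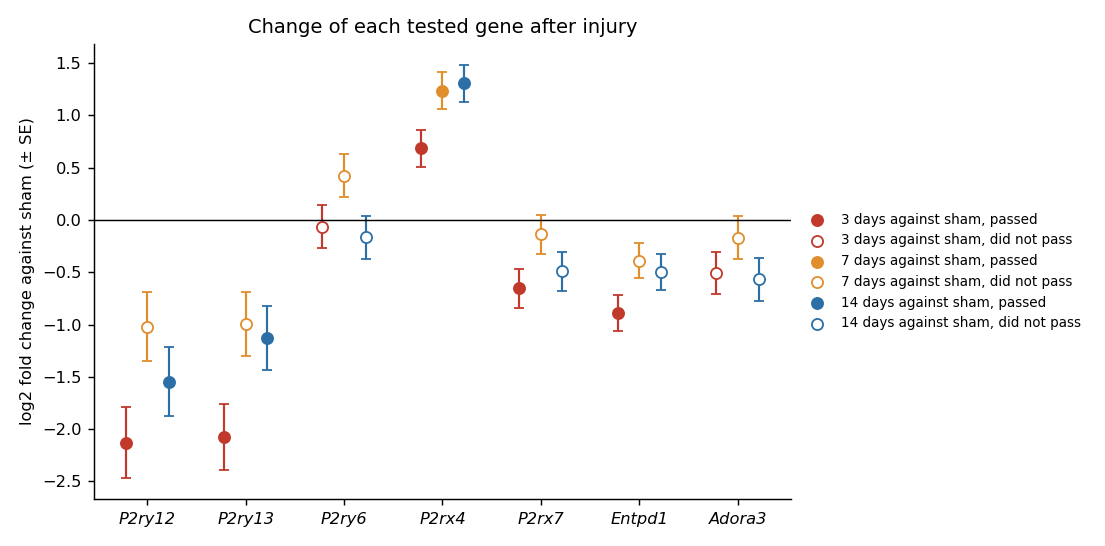
Log2 fold change against sham (vertical axis) of the 7 tested genes at 3, 7 and 14 days after injury, with bars of ± SE; filled points passed an adjusted p of 0.05 and open points did not. P2rx4 lies above 0 and passed at each time, and P2ry12 and P2ry13 lie between -2.13 and -0.999.

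Per length, the order of the 8 genes changed after injury. In sham, P2ry12 was first with 202.0 ± 55.7 RPKM, followed by P2ry13 (113.4 RPKM), P2rx7 (81.6), Entpd1 (65.4), P2ry6 (43.7), Adora3 (18.2), P2rx4 (12.8) and Adora2a (0.0657). The ranges of neighbours overlapped from P2ry12 down to Entpd1 and again between Adora3 and P2rx4. At 3 days the first 6 were P2rx7 (53.9 RPKM), P2ry12 (48.7), P2ry6 (43.7), Entpd1 (36.5), P2ry13 (28.5) and P2rx4 (21.1), each overlapping with its neighbour, and P2rx4 then stood above Adora3 (13.3 RPKM) with no overlap. At 7 days P2ry12 (101.0 RPKM), P2rx7 (75.5), P2ry6 (59.8), P2ry13 (57.8), Entpd1 (50.4) and P2rx4 (30.3) preceded Adora3 (16.4). The 14-day order was P2ry12 (77.1 RPKM), P2rx7 (64.1), P2ry13 (57.8), Entpd1 (50.9), P2ry6 (43.1), P2rx4 (34.2) and Adora3 (13.5). Adora2a was last in every group, with 0.703 RPKM at 3 days, 0.153 at 7 days and 0.409 at 14 days. Its deposited length of 2534 bases is shorter than the 3062 exonic bases of the GENCODE M21 annotation used here, and for the other 7 genes the lengths were equal.

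**Figure D3:**
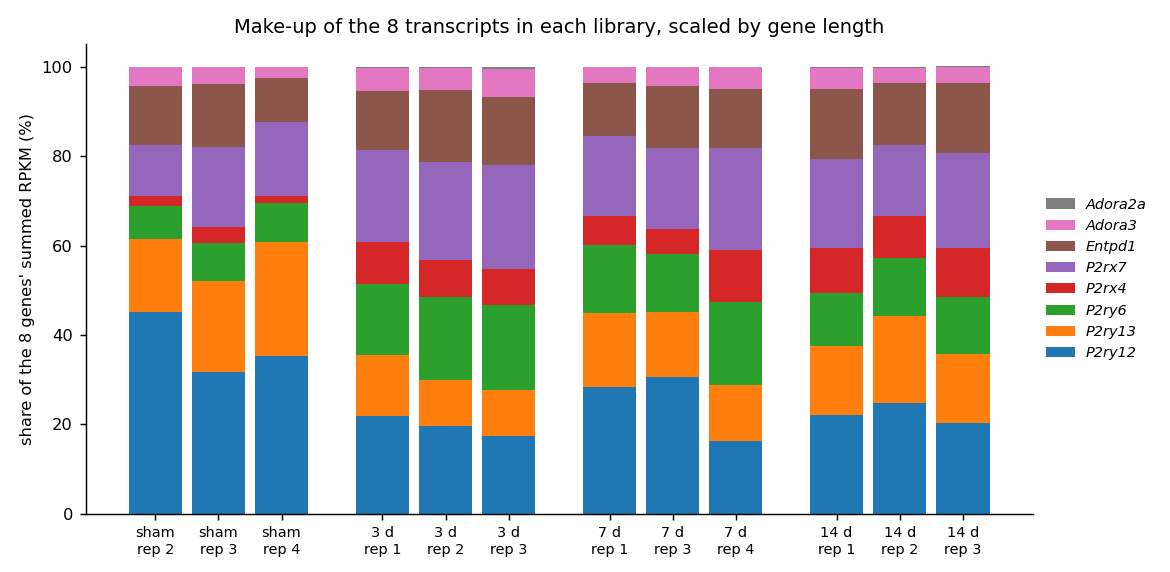
Share of the summed RPKM of the 8 genes (vertical axis, percent) that each gene takes in each library, with libraries ordered by group from sham to 14 days. P2ry12 takes 31.7% to 45.1% in sham and 17.3% to 21.8% at 3 days, and P2rx4 takes 1.67% to 3.54% in sham and 8.03% to 9.29% at 3 days.

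Shares within a library do not depend on how libraries are scaled to each other. They add up to a fixed whole, so when a gene falls the shares of the others rise. P2ry12 took 21.8%, 19.7% and 17.3% of the 8 genes' summed RPKM at 3 days, against 45.1%, 31.7% and 35.3% in sham. Its share was 28.4%, 30.5% and 16.3% at 7 days and 22.2%, 24.8% and 20.3% at 14 days, so every injured library was below every sham library. P2rx4 took 8.03% to 9.29% at 3 days, 5.70% to 11.8% at 7 days and 9.49% to 10.8% at 14 days, against 1.67% to 3.54% in sham. P2ry6 took 15.9% to 19.1% at 3 days, 13% to 18.4% at 7 days and 12% to 12.9% at 14 days, against 7.18% to 8.76% in sham, although its own level did not pass the test at any time.

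Ratios of 2 genes restate the same RPKM values pair by pair and are no separate evidence. The RPKM ratio of P2ry6 to P2ry12 was 0.731, 0.937 and 1.10 at 3 days, against 0.159, 0.265 and 0.248 in sham. It was 0.531, 0.425 and 1.13 at 7 days and 0.541, 0.522 and 0.636 at 14 days, with no overlap between any injured library and sham. The ratio of P2rx4 to P2rx7 was 0.448, 0.377 and 0.344 at 3 days, 0.371, 0.316 and 0.520 at 7 days and 0.504, 0.599 and 0.503 at 14 days, against 0.200, 0.198 and 0.101 in sham, again with no overlap. With 3 libraries against 3, an exact two-sided permutation test cannot go below p = 0.10, so these ratios are given as values. The ratio of P2ry13 to P2ry12 showed no such shift: it was 0.525 to 0.633 at 3 days, 0.478 to 0.773 at 7 days and 0.688 to 0.787 at 14 days, against 0.366 to 0.722 in sham. In 7-day replicate 4 the ratios of P2ry6 and of P2rx4 to their partners were the highest of the 7-day group, as P2ry12 was lowest and P2rx4 highest there.

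**Figure D4:**
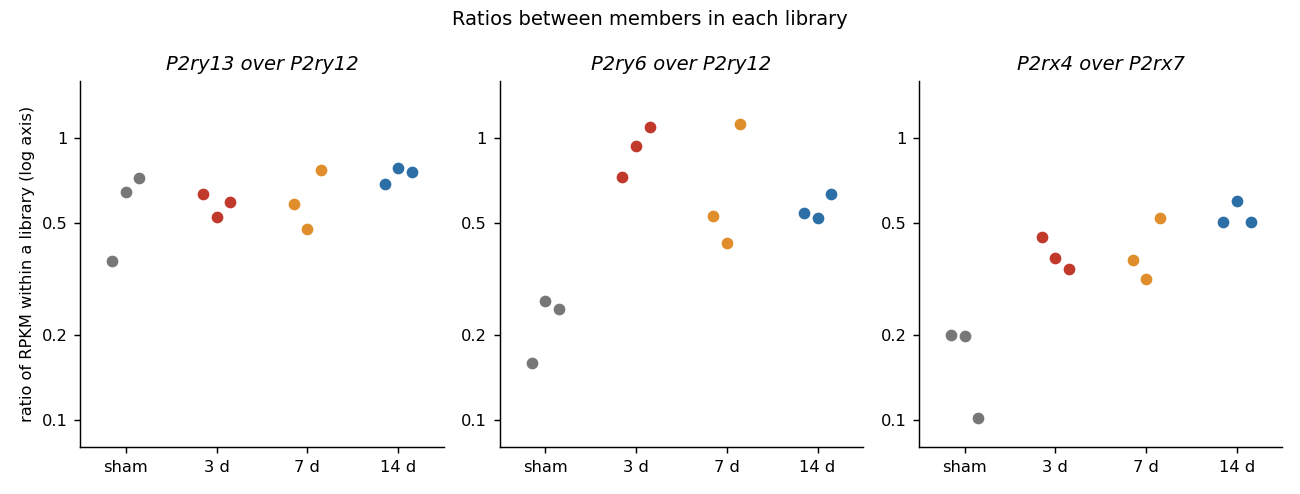
Ratio of the RPKM of 2 genes within a library (vertical axes, log scale) in sham and at 3, 7 and 14 days after injury, 1 point per library. P2ry6 over P2ry12 and P2rx4 over P2rx7 are higher in every injured library than in every sham library, and P2ry13 over P2ry12 overlaps between the groups.

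Markers of several other cell types also differed between groups. Against sham 20.0%, 9.28% and 9.82% of all tested genes were called at 3, 7 and 14 days, and the counts below stand beside these shares. The 10 listed genes of monocyte-derived macrophages summed to 1258 to 1720 CPM at 3 days, 310.0 to 671.8 CPM at 7 days and 806.8 to 927.6 CPM at 14 days, against 172.4 to 344.6 CPM in sham. Of the 7 tested genes of this list 3 rose at 3 days, 2 rose at 7 days, and 2 rose and 1 fell at 14 days. Fn1 made up most of the sum at 3 days, with at most 1260 CPM there and 72.2 CPM in sham. Lyz2 had 271.7 to 331.2 CPM at 3 days against 45.11 to 47.87 CPM in sham, and Ccr2 had 22.55 to 34.78 against 8.916 to 14.08 CPM. F10 was at 0 in every sham library, and Ly6c2 had at most 2.31 CPM and S100a4 at most 0.911 CPM in any library. The 10 microglia-defining genes had 3 members that fell at 3 days and 2 at 14 days. Listed endothelial genes summed to 259.7 to 660.4 CPM at 3 days and 417.5 to 427.9 CPM at 14 days, against 44.4 to 195.7 CPM in sham, with 49.2 to 65.3 CPM at 7 days. The 8 listed neuron genes summed to 674.9 to 863.8 CPM at 3 days, 853.2 to 1178 CPM at 7 days and 1111 to 1623 CPM at 14 days, against 1567 to 3175 CPM in sham, and 6 of the 8 fell at 3 days, 4 at 7 days and 1 at 14 days. Listed genes of border-associated macrophages, with 7 of 8 tested, had 3 that fell and 1 that rose at 3 days, 1 that fell at 7 days and 6 that fell at 14 days. They summed to 879.9 to 1064 CPM at 3 days, 804.0 to 1191 CPM at 7 days and 360.5 to 506.5 CPM at 14 days, against 887.9 to 1328 CPM in sham. Stab1 made up most of the sum at 3 days, with 755.1 to 857.9 CPM there and 505.0 to 516.0 CPM in sham. At 3 days Mrc1 had 53.98 to 115.6 CPM (186.8 to 376.5 in sham), Cd163 17.08 to 55.43 CPM (84.58 to 191.5) and Lyve1 6.605 to 12.89 CPM (27.89 to 125.1). Listed oligodendrocyte genes overlapped with sham in their sum at 3 days, with 965.9 to 1388 CPM against 891.1 to 1737 CPM. At 3 days 0 of 2 tested neutrophil genes and 0 of 1 tested T and NK cell gene were called, and no listed B-cell gene could be tested. The part of any of these cell types in the levels of the 8 genes was not tested. When libraries were scaled to the summed counts of the microglia-defining genes, a setting added after the marker sums were seen, P2ry12 still fell at 3 days (-1.66, edgeR adjusted p = 0.000616), as did P2ry13 (-1.64, 0.000881), and P2rx4 rose (1.14, 0.00129). On that scale Entpd1 (-0.42, edgeR adjusted p = 0.0952) and P2rx7 (-0.22, 0.527) no longer passed. The same scaling moved the median of all genes to 0.44.

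Over the 12 libraries the levels of P2ry12 and Entpd1 had a Pearson r of 0.955 in log2 CPM, and those of P2ry12 and P2ry13 one of 0.935. P2rx4 had a negative r with both, -0.554 for P2ry12 and -0.423 for P2ry13. These values describe the same 12 libraries, share the group differences and the scaling, and carry no test. Among 9358 genes with a mean of at least 10 CPM, those most like P2ry12 were Gng2 (r = 0.975), RP23-423B21.6 (0.969) and Stambpl1 (0.966). The nearest to P2ry13 were Celf2 (0.975), Tex12 (0.965) and Fam210a (0.956), and Tgfbr1 (0.971) and Mfap3 (0.963) were among the nearest to Entpd1. P2rx4 was nearest to Dusp3 (0.954), Lrmp (0.953) and Arrdc4 (0.948), and P2rx7 to Il1a (0.963), Frmd4b (0.957) and Lair1 (0.954). P2ry6 was nearest to Zfp429 (0.906), Ptpn6 (0.896) and Exosc1 (0.893), and Adora3 to Apoa1bp (0.940), Psmd6 (0.899) and Ctnnal1 (0.894).

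The neighbours of the ADP receptors changed in different directions. Both receptors lie inside Med12l, which runs on the opposite strand (GRCm38 chromosome 3, 59005825 to 59318682) and encodes a subunit related to Mediator. Med12l shares 9 exonic bases with P2ry12 and 0 with P2ry13. It had 365.8, 348.5 and 295.9 CPM at 3 days, against 586.4, 694.0 and 915.7 CPM in sham, a fall of 1.12 on the log2 scale (SE 0.20, edgeR adjusted p = 0.00175). Nuclear RNA holds introns, and whether the counting used strand is not given in the sources used here, so reads from Med12l and from the receptors cannot be fully told apart. Gpr171, a receptor gene in the same cluster, was higher at 3 days, with 10.02, 7.74 and 7.398 CPM there and 4.39, 2.74 and 1.12 CPM in sham (1.54 ± 0.48, edgeR adjusted p = 0.0338), a call that ended on leaving out any of 8 libraries, with the replicate block (0.069), with the Y-linked covariate (0.0539) and in a fit of those 2 groups alone (0.0782). P2ry14, a receptor for UDP-sugars nearby, did not pass at 3 days (0.49 ± 0.29, edgeR adjusted p = 0.252), nor did Igsf10 (-0.13 ± 0.33, 0.812). Near P2rx4, Camkk2 did not pass either (0.26 ± 0.17, edgeR adjusted p = 0.277), nor did Tctn3 near Entpd1 (0.52 ± 0.24, 0.135) or Specc1l near Adora2a (0.19 ± 0.18, 0.484) at 3 days. Upb1 and Cc2d2b had too few counts for the test. Mir8115 lies within P2rx7 and shares 119 of its exonic bases, while Gm44545 within P2ry6 and the pseudogenes Gm16027 and Gm8783 within Entpd1 share 0.

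Of 44 other listed genes of purinergic signalling 38 were tested. Against sham 6 rose and 3 fell at 3 days, 2 rose at 7 days, and 4 rose and 1 fell at 14 days. These are 23.7%, 5.26% and 13.2% of the 38, beside 20.0%, 9.28% and 9.82% of all genes, so the shares at 3 and 14 days are near those of all genes. Without sham replicate 4 the 14-day counts were 7 and 3, beside 1361 and 1432 over all genes (14.3% called). The 3-day split moved with the scaling, to 8 and 2 with pan-myeloid and 12 and 1 with microglia-defining genes. The split over all genes moved the same way, to 3085 higher and 629 lower and to 4463 and 417, so this shift is not particular to the listed genes. Their median log2 fold change was 0.18 at 3 days, -0.14 at 7 days and -0.08 at 14 days.

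Among the other receptors P2ry2, which responds to ATP and UTP, was almost uncounted in sham. It had 0, 1 and 0 raw counts in sham, 24, 29 and 35 at 3 days, 9, 15 and 18 at 7 days, and 21, 13 and 17 at 14 days. Summed per group, the level was 61.6 times that of sham at 3 days (exact 95% interval 10.8 to 2460), 34.7 times at 7 days (5.90 to 1400) and 52.8 times at 14 days (9.06 to 2130). It was called at all 3 times (edgeR adjusted p = 0.000175, 0.0029 and 0.000867), at levels near 4 CPM or below. P2ry2 passed the filter on low counts only through the injured libraries, where it was high, so these p-values are no separate support. The intervals cover counting error only, with amplified reads of a group taken as independent. Gpr34, a lysophosphatidylserine receptor of the P2Y-like group and itself a microglial marker, had 36.2, 29.0 and 26.3 CPM at 3 days, against 181.5, 68.6 and 136.3 CPM in sham. It fell by 2.09 on the log2 scale (SE 0.40, edgeR adjusted p = 0.00231). P2rx5, P2rx6, Gpr17, Adora1 and Adora2b did not pass at any time, with log2 fold changes of -0.15, -1.11, 0.50, -0.25 and 1.06 at 3 days.

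Among enzymes, Enpp1, which turns ATP into AMP and pyrophosphate, rose where Entpd1 fell. Its level was 84.3, 74.3 and 69.8 CPM at 3 days, against 14.99, 23.1 and 36.4 CPM in sham, 1.63 ± 0.30 on the log2 scale (edgeR adjusted p = 0.00188). It remained higher at 7 days (1.29 ± 0.30, edgeR adjusted p = 0.017) and at 14 days (1.33 ± 0.30, 0.0124), the 7-day call ending without 7-day replicate 3 (1.13, 0.0528) or 4 (1.11, 0.0698) or in a fit of those 2 groups alone (1.26, 0.121). Nt5e, which makes adenosine from AMP, did not pass at 3 days (0.73 ± 0.36, edgeR adjusted p = 0.164), and its level was 3.51 to 12.1 CPM over all libraries. Ada, which removes adenosine, fell at 3 days by 1.05 (SE 0.27, edgeR adjusted p = 0.0141). This call ended without 3-day replicate 3 (0.0704), with pan-myeloid (-0.75, 0.0743) or microglia-defining scaling (-0.62, 0.129) and in a fit of those 2 groups alone (0.0565). The transporter gene Slc29a3 fell by 1.02 (SE 0.25, edgeR adjusted p = 0.0107) at the same time, a call that ended with microglia-defining scaling (-0.59, 0.113), with the replicate block (-0.82, 0.0592) and in a fit of those 2 groups alone (0.0509). Pnp, an enzyme of purine salvage, fell at 14 days by 0.60 (SE 0.15, edgeR adjusted p = 0.0243), a call that ended without sham replicate 3 or any 14-day library and in 7 other settings, among them microglia-defining scaling (-0.21, 0.526). Slc29a1, Ampd3 and Acpp did not pass at any time. Alpl, a phosphatase that endothelial cells also express, had 22, 22 and 13 raw counts at 14 days against 0, 3 and 4 at 7 days (edgeR adjusted p = 0.047), and this call ended on leaving out any of 10 libraries.

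Of the genes that release nucleotides, the hemichannel genes Panx1 (1.35 ± 0.36, edgeR adjusted p = 0.0282) and Gja1 (1.80 ± 0.35, 0.00498) rose at 14 days. Panx1 had 7.23, 8.65 and 5.79 CPM at 14 days, against 2.57, 3.66 and 2.24 CPM in sham, and its call ended without sham replicate 2 or any 14-day library, with the replicate block (0.0792), with no filter (0.0507) and in a fit of those 2 groups alone (0.0815). Gja1, which astrocytes express strongly, had 37.7, 31.6 and 44.3 CPM at 14 days, against 11.8, 10.5 and 10.1 CPM in sham. The summed astrocyte markers were 2162 to 2562 CPM at 14 days, against 535.1 to 4999 CPM in sham, and their part in the Gja1 level was not tested. Abcc6, whose product supports ATP release from liver, was called at 3 days (edgeR adjusted p = 0.0164) on 14, 17 and 113 raw counts there and 0, 1 and 5 in sham, and not without 3-day replicate 3 (0.121) or in a fit of those 2 groups alone (0.0524). Lrrc8a and Slc17a9 did not pass at any time.

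Of the coupling partners, Gnai2, an alpha subunit of the Gi proteins that P2ry12 couples to, rose at 3 days by 0.78 (SE 0.22, edgeR adjusted p = 0.0204). Its level was 185.4, 207.4 and 193.1 CPM at 3 days, against 113.2, 138.8 and 89.3 CPM in sham, and the call ended without sham replicate 4 or without 3-day replicate 2 or 3 (adjusted p = 0.0543 to 0.0784). Kcnk13, the potassium channel THIK-1, through which P2ry12 signalling is known to act in microglia, rose by 0.97 (SE 0.26, edgeR adjusted p = 0.0161; 0.0923 without 3-day replicate 2 and 0.0837 with those 2 groups alone). Plcb2, a phospholipase downstream of G proteins, rose by 0.59 (SE 0.15, edgeR adjusted p = 0.0151; 0.0841 without 3-day replicate 2, 0.0516 with the replicate block and 0.0906 with those 2 groups alone). These rises stood beside falls of P2ry12, P2ry13 and Gpr34 in the same libraries. Arrb2, an arrestin that binds active receptors, was higher at 7 than at 3 days by 1.00 (edgeR adjusted p = 0.0292) and lower at 14 than at 7 days by 1.64 (edgeR adjusted p = 0.0152), and either call ended on leaving out any of 5 libraries, that of 7 against 3 days also with pan-myeloid (0.51, 0.169) or microglia-defining scaling (0.60, 0.0941) and in limma on log2 RPKM. Gnaq and Itpr2 did not pass at any time.

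**Figure D5:**
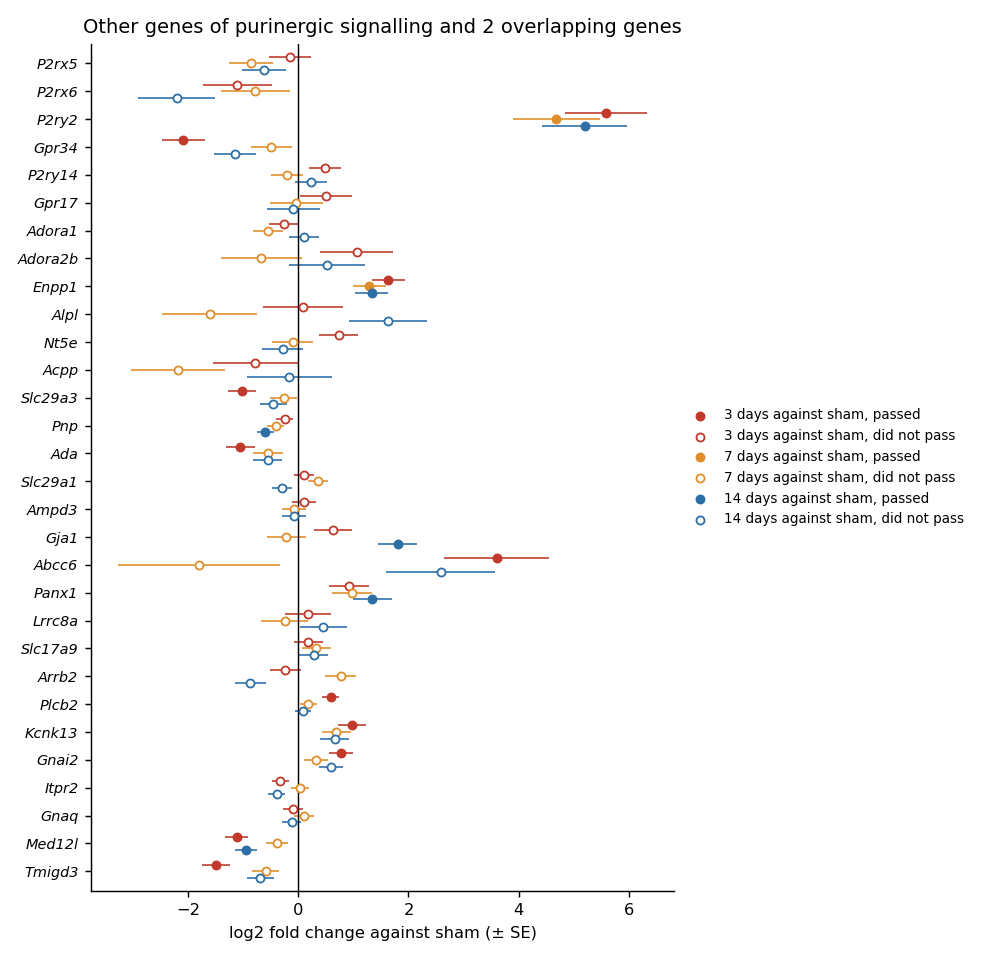
Log2 fold change against sham (horizontal axis, bars ± SE) of named purinergic genes outside the 8 and of Med12l and Tmigd3, which overlap members, at 3, 7 and 14 days after injury; filled points passed an adjusted p of 0.05. P2ry2 and Enpp1 passed above 0 at each time, and Gpr34, Med12l and Tmigd3 passed below 0 at 3 days.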

How the data were processed

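Nuclear RNA of 12 pools of GFP-captured nuclei was amplified by single-primer isothermal amplification and sequenced with paired reads, per the labels' protocols. The authors deposited raw counts per Ensembl gene and RPKM. Counting was done with featureCounts 1.4.6-p3 on GRCm38, per the submitters' processing notes. No source used here names the aligner or strand setting. The deposited RPKM equal count over length and library total.

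In R 4.3.3, genes passing filterByExpr (18451 genes holding 99.6% of counts) entered a TMM-scaled fit in edgeR 4.0.16 (glmQLFit, 4 groups, 12 libraries) and were tested by quasi-likelihood with Benjamini-Hochberg adjustment over all of them. The SE is the log2 fold change over the square root of F. Code was tested on simulated data. DESeq2 1.42.0 and limma 3.58.1 on log2 RPKM served as alternatives, beside other scalings (median-ratio, 10 pan-myeloid or 10 microglia-defining genes), no filter or a stricter one (1 CPM in 3 libraries and a mean of 5), the replicate number or Y-linked level as a term, a fit of 2 groups and each library left out. Figures used Python 3.11.15 and matplotlib 3.10.9. Libraries of a group correlated at 0.880 to 0.979 and differed beyond counting error. Gene positions come from GENCODE M21, promoter windows from RefSeq (GRCm38.p6), which has an entry for P2ry12, P2ry13, P2rx4, P2rx7, Entpd1 and Adora3.

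The 8 genes and all gene lists were chosen with earlier results of these data known. Outside the 8, up to 4 called genes with the smallest p and up to 2 others with the highest level are named per list, with the locus neighbours, overlapping genes and the 3 nearest genes by Pearson r; a few genes that this rule names are not reported here.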

Additional observations from a re-analysis of the deposited data

Results flagged for a closer look

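In 3 cases the level of a gene differed between injured groups of different times by a direct test of the difference. Sham libraries enter these differences only through the shared estimates of spread and scaling and the genes tested. They are all labelled day 7, and no sham labelled day 3 or 14 stands beside those times. P2ry12 was 1.11 higher on the log2 scale at 7 than at 3 days (edgeR adjusted p = 0.0386), higher in 2 of 3 libraries than in all 3-day libraries. P2ry13 was 1.07 higher at 7 than at 3 days (edgeR adjusted p = 0.0333), in 3 of 3 libraries. P2rx4 was 0.62 higher at 14 than at 3 days (edgeR adjusted p = 0.0454), in 3 of 3 libraries. All 3 calls ended when libraries were scaled to pan-myeloid genes, with values of 0.61 (edgeR adjusted p = 0.101), 0.58 (0.115) and 0.34 (0.353), or to microglia-defining genes, with 0.697 (0.0944), 0.67 (0.121) and 0.55 (0.16), and none was called by limma on log2 RPKM. All 3 comparisons are between injured groups, and no cause was tested. Groups of 3 libraries were not tested for outlying samples.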

How the results depend on the processing

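Under 22 listed alternatives and 1 added after the marker sums were seen, 12 of the 42 log2 fold changes of the tested genes were called and 0 of these changed sign; the calls of P2ry12 and P2ry13 at 3 days and of P2rx4 at 7 and 14 days held under all 23. Scaling to 10 pan-myeloid or 10 microglia-defining genes moved the median of all genes at 3 days from -0.03 to 0.29 and 0.44, and the calls over all genes at 3 days to 3085 higher and 629 lower and to 4463 and 417, beside 2003 and 1692. Of 7 against 3 days these splits were 254 and 4397 and 287 and 2941, beside 1079 and 1387. Called genes of the 8 against sham at 3 days numbered 5 in the edgeR fit (beside 20.0% of all genes), 3 with microglia-defining scaling (26.4%), 3 in the fit of only the groups compared (10.6%) and 3 to 7 without 1 library (9.95% to 21.3%), where Adora2a could enter. They numbered 4 with pan-myeloid scaling (20.1%), with the replicate block (16.2%) and with the Y-linked covariate (16.4%). At 7 days they numbered 1 (9.28%), against 2 with median-ratio size factors (9.11%), 4 with pan-myeloid scaling (8.56%), 3 with DESeq2 (14.1%), 3 with no filter (8.47%), 2 with a stricter filter (11.5%) and 1 to 3 without 1 library (4.23% to 16.3%). At 14 days they numbered 3 (9.82%), and 1 to 4 without 1 library (3.58% to 14.3%). Of 7 against 3 days they numbered 2 (13.4%), against 0 with pan-myeloid (25.2%) or microglia-defining scaling (17.5%), 1 with a Y-linked covariate (9.07%), 0 with limma on log2 RPKM plus 1 (10.5%) or 0.1 (9.18%), 4 in the fit of 2 groups (20.2%) and 0 to 6 without 1 library (3.01% to 23.3%). Of 14 against 7 days they numbered 0 (2.19%), 1 in the fit of 2 groups (10.8%) and 0 to 1 without 1 library (up to 9.11%). Of 14 against 3 days they numbered 1 (7.31%), against 0 with pan-myeloid (11%) or microglia-defining scaling (5.24%), the covariate (3.79%), limma (6.61% and 5.46%) or the replicate block (6.24%), 2 with DESeq2 (11%), 3 with no filter (5.99%), 4 in the fit of 2 groups (28.6%) and 0 to 2 without 1 library (2.32% to 13.5%). In the test of any difference they numbered 5 (26.4%), and 3 with microglia-defining scaling (30.0%). The causes of these shifts were not tested.

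Values that did not pass and changed sign were as follows. P2ry6 at 3 days was 0.27 (pan-myeloid), 0.39 (microglia-defining), 0.0562 (replicate block), 0.0198 and 0.0206 on RPKM, and -0.26 to 0.18 without 1 library. At 14 days it was 0.19 (microglia-defining) and -0.34 to 0.0939 without 1 library. P2rx7 at 7 days ranged from -0.30 to 0.16 and Adora3 from -0.33 to 0.0674 without 1 library, and P2rx7 of 14 against 3 days was -0.12 (pan-myeloid). Adora3 of 7 against 3 days was -0.15 (pan-myeloid) and -0.0481 (microglia-defining). Of 14 against 3 days it was 0.0722 (Y-linked covariate), 0.0102 and 0.00994 on RPKM and -0.16 to 0.0940 without 1 library. Of 14 against 7 days, P2ry13 was 0.0672 (pan-myeloid), 0.18 (microglia-defining), 0.00156 and 0.00173 on RPKM and -0.34 to 0.0829 without 1 library. Entpd1 was 0.0970, 0.21, 0.0213 and 0.0218 in those 4 settings and -0.21 to 0.00498 without 1 library. P2rx4 was -0.0764 to 0.26 without 1 library.

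Same-numbered libraries of different groups did not deviate together (13 pairs, correlations of -0.298 to 0.0693, with 2 libraries correlating best with their own number). With 3 libraries a group this cannot exclude that the numbers pair them. The replicate block moved the calls over all genes from 2466 to 3276 of 7 against 3 days and from 404 to 1608 of 14 against 7 days. At 3 days against sham they went from 3695 to 2980, and they were also fewer in the other comparisons. With the replicate block P2rx7 at 3 days (-0.54, edgeR adjusted p = 0.0979), P2ry13 at 14 days (-1.11, adjusted p = 0.0614) and P2rx4 of 14 against 3 days (0.63, adjusted p = 0.0687) no longer passed. Adora2a, with 0 to 26 counts per library, was too low for the filter on low counts.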
